A study of Mus musculus with 550 samples.

Results

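Cells that have begun to leave pluripotency towards mesoderm or endoderm were looked for in embryoid bodies (EBs) through 10 marker genes, namely T, Mixl1, Eomes, Mesp1, Kdr, Gata4, Gata6, Sox17, Foxa2 and Dab2. These are 10 of the 55228 gene names in the count table and were picked as known lineage markers, by name and by no threshold on their values. The choice of these genes and of the marker lists was made with earlier results of these data known. Mouse E14 embryonic stem cells (129/Ola), either wild type (WT), Dnmt3a -/- (3AKO) or Dnmt3b -/- (3BKO), were taken through EB differentiation by withdrawing LIF in low-attachment plates, and single live cells were sorted into 96-well plates at day 3 and day 9 for full-length (Smart-seq2 type) RNA sequencing. The methods name 2 independent clones of each mutant, and which cell came from which clone or culture is not given in the sources used here. Each of the 6 groups of genotype and day was therefore treated as 1 sample with no replicate, the cells of a group are not replicates of its genotype, and no test between genotypes was possible. A gene was called detected in a cell when it had 2 or more reads there. Levels are in CPM, that is, counts per 1e+06 reads of a cell or of a group of cells. Intervals are exact 95% intervals (Clopper-Pearson for shares, Poisson for summed reads), and they cover counting error only, since the reads carry no molecular identifiers and repeat reads of 1 molecule cannot be recognised.

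At gastrulation, pluripotent epiblast cells pass through the primitive streak and become mesoderm or definitive endoderm. T (brachyury) and Eomes are T-box transcription factors of the streak, Mixl1 is a homeobox factor induced there by Nodal and Wnt signals, Mesp1 is a bHLH factor of the first mesoderm to leave the streak, and Kdr is the VEGF receptor of blood and vessel precursors. Gata4, Gata6, Sox17 and Foxa2 are transcription factors of endoderm, and Dab2 is an endocytic adaptor of extraembryonic endoderm, the lineage that lines the yolk sac. Several of these genes serve more than 1 lineage, since Gata4 and Gata6 also act in heart mesoderm and Sox17 in endothelium, so that the other genes in a cell are needed to read them.

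Of 550 cells, 486 had at least 50000 reads, at least 2000 genes and at most 50% mitochondrial reads, with a median of 263901.5 reads (54720 to 1450202) and 6541.5 genes. They comprise 79 WT, 83 3AKO and 80 3BKO cells at day 3, and 89 WT, 88 3AKO and 67 3BKO cells at day 9. Every day 3 group started from 91 cells. At day 9 the start was 91 for WT and 93 for either mutant, so that the filter fell hardest on 3BKO. Shares are given among kept cells, and the effect of this uneven loss on them was not tested. Cells of batch 1 (333 cells) lie in plate columns 1 to 8 and cells of batch 2 (153 cells) in columns 9 to 12. At day 9 each genotype was on its own plate, WT on 234, 3AKO on 236 and 3BKO on 238. Genotype and plate therefore cannot be told apart in any comparison of day 9 genotypes. WT cells of day 3 were likewise on a plate of their own (209). At day 3 the mutant labels of batch 2 went against the Dnmt3a levels. Cells labelled 3AKO had 334.5 CPM of Dnmt3a in batch 2 against 25.8 in batch 1, and cells labelled 3BKO had 12.8 against 586.7. Dnmt3b was at 85.1 CPM in batch 2 and 260.9 in batch 1 under the 3AKO label. Under the 3BKO label Dnmt3b was at 185.0 and 166.7 CPM. Dnmt3a was thus high on plate 210 (3AKO label in batch 2, 3BKO label in batch 1) and low on plate 211. Mutant values at day 3 are therefore also given for batch 1 alone, and mutant cells of day 3 batch 2 are named by their labels only. No 2 cells held identical counts. Of 12 genes of unrelated tissues, 10 were detected in no cell, Cd3e in 5 and Pmch in 2.

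The start regions of T and Dab2 are shown because T is the defining factor of the streak and Dab2 gave the most reads in the cells with all 5 endoderm markers. Each is the 250 bases before a RefSeq start of the gene (GRCm38.p6, plus strand, 5′ to 3′). Capitals mark the T-box core AGGTGT in T (chr17:8434173-8434422) and the GATA core GATAA in Dab2 (chr15:6299539-6299788).
T: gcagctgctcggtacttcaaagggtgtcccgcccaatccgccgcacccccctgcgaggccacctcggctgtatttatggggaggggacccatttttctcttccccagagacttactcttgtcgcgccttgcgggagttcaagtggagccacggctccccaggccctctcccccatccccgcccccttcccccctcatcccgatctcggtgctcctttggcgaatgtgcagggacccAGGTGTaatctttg
Dab2: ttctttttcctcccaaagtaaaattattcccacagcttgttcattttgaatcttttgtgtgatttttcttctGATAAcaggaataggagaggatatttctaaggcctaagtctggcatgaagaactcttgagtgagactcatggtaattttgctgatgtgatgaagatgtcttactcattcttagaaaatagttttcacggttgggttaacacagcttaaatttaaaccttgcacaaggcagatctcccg
The T-box core, searched as AGGTGT and ACACCT, was present in 11.8% of 32851 mouse start regions of the same length, and the GATA core, searched as GATAA and TTATC, in 22.6%. Dab2 has another RefSeq start region (chr15:6386498-6386747), which holds no GATA core. The start region of Eomes (chr9:118477939-118478188) holds no T-box core. A match describes these letters and does not show that a factor binds there.

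Most cells had none of the 10 genes. At least 1 of them was detected in 167 of 486 cells (34.4%), but 82 of these cells had Eomes alone and 21 had Dab2 alone. At least 2 genes occurred together in 33 cells and at least 3 in 10 cells. Leaving Eomes aside, only 14 cells had 2 or more. The plot of reads in the 33 cells shows that large read numbers were gathered in a few of them.

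**Figure D1:**
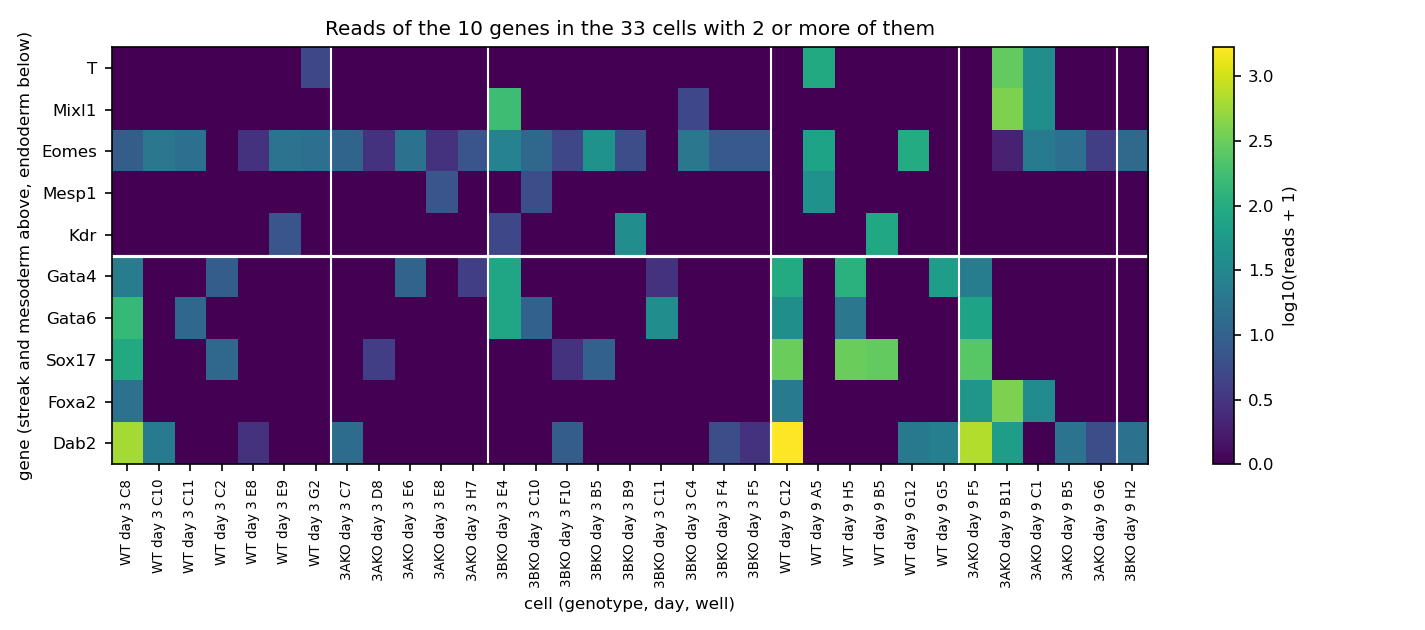
Reads, as log10 of reads + 1 (colour), of each of the 10 genes (rows, streak and mesoderm genes above and endoderm genes below) in the 33 cells with 2 or more of them (columns, named by genotype, day and plate well). The 3 cells with all 5 endoderm genes are WT day 3 C8, WT day 9 C12 and 3AKO day 9 F5, while most other cells hold Eomes with a single further gene.

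Eomes (chr9:118478212-118486132, plus strand, GRCm38) was the most widely detected gene, in 107 cells (22.02%; 18.41 to 25.97). Its reads were spread out, the cell with the most (198 reads, 3BKO day 9 D12) holding 8.47% of 2338. Only 25 of the 107 cells (23.4%) had another of the 10 genes. Cells with Eomes alone also kept the pluripotency genes, with a median of 14 of 18 detected (6 to 17, n = 82 cells), equal to the median of 14 in the 319 cells with none of the 10 genes.

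T (chr17:8434423-8442496, plus strand) was detected in 5 cells (1.03%; 0.33 to 2.38). These were 3AKO day 9 B11 with 283 reads, WT day 9 A5 with 90, 3AKO day 9 C1 with 38, WT day 3 G2 with 4 and 3AKO day 3 B1 with 2. The 3 cells of day 9 thus held nearly all T reads, and 67.7% of the 418 reads came from B11 alone. Mixl1 (chr1:180693043-180697034, minus strand) was found in 7 cells, with 383 reads in B11, 39 in C1, 167 in 3BKO day 3 E4 and 2 to 7 in the others. Mixl1 was thus not detected in any WT cell at either day. Mesp1 (chr7:79792241-79793788, minus strand) reached 44 reads in WT day 9 A5, 26 in WT day 9 B8 and 13 in WT day 9 F1, and 3 to 7 reads in 5 mutant cells. The 3 WT cells were all of day 9 and stood above each mutant cell. Kdr (chr5:75932827-75978458, minus strand) was found in 5 cells, with 86 reads in WT day 9 B5, 37 in 3BKO day 3 B9 (batch 2) and 4 to 6 in the rest.

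Among the endoderm genes, Dab2 (chr15:6299788-6440712, plus strand) was detected in 36 cells (7.41%; 5.24 to 10.1). WT day 9 C12 had 1681 reads, 3AKO day 9 F5 had 709 and WT day 3 C8 had 621, whereas the next cell had 64 and the lowest had 2. Gata4 (chr14:63198922-63271692, minus strand) was found in 21 cells, with 113 reads in WT day 9 H5, 93 in C12, 80 in 3BKO day 3 E4, 63 in WT day 9 G5, and 2 to 22 in the other 17. Gata4 thus had no single cell in command, its highest cell giving 23.5% of 480 reads. Gata6, the partner of Gata4 in primitive endoderm, was found in 15 cells, with 144 reads in C8, 79 in E4, 73 in F5 and 40 in C12. Sox17 (chr1:4490931-4497354, minus strand) was found in 11 cells. C12 had 310 reads of Sox17, H5 had 307, WT day 9 B5 had 285, F5 had 240, C8 had 90 and the other 6 cells had 2 to 29. Foxa2 (chr2:148042877-148046969, minus strand) was found in 6 cells, with 383 reads in B11, 50 in F5, 35 in C1, 21 in C12, 15 in C8 and 8 in 3BKO day 3 G10. Its largest value was thus in a cell with T and Mixl1 and not in a cell with Sox17. Of the exon bases of Sox17, 16.8% lie under a gene on the other strand in the annotation, and at most 2.87% for Eomes, Gata6 and Dab2, and whether the counting used strand is not given in the sources used here.

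For 4 of the 10 genes (Foxa2, T, Mixl1 and Kdr) at least 50% of all reads came from 1 cell. The same held for 37% of 17527 genes detected in 1 to 107 cells and for 6.18% of 9186 genes detected in 5 to 107 cells, so that how the count is read depends on how sparse the genes set beside it are. Per kilobase of exon, the pooled level was highest for Eomes (3.71 CPM per kb) and Dab2 (3.16), followed by Sox17 (1.79), Mixl1 (1.75), Foxa2 (1.43), T (1.19), Gata4 (0.812), Mesp1 (0.580), Gata6 (0.511) and Kdr (0.102). Since few cells carry most of these reads, the order among neighbours such as Sox17 and Mixl1 rests on single cells. Spill between wells was looked at through 31 wells with 20 or more reads of a gene: a read of that gene was present in 8.66% of 508 wells in the same row or column and in 6.25% of 2063 other wells of the plate. The part of such spill in the lowest values was not tested.

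Of the 45 pairs of genes, 32 were seen in at least 1 cell, including all 10 endoderm pairs and 7 of 10 streak and mesoderm pairs. Sox17 had company in 9 of 11 cells (81.8%), Foxa2 in 5 of 6 (83.3%), T in 4 of 5 (80%) and Kdr in 4 of 5, against 25 of 107 for Eomes. Gata4 and Gata6 shared 6 cells, which were 28.6% of Gata4 cells and 40% of Gata6 cells. T and Mixl1 shared 2 cells (40% of T cells and 28.6% of Mixl1 cells), and both cells also had Foxa2. The most frequent pair was Eomes with Dab2 in 11 cells, 10.3% of Eomes cells and 30.6% of Dab2 cells, all with 21 or fewer Dab2 reads except C8. With each cell thinned to 50000 reads this pair was left in 2 cells, while Gata4 with Sox17 was in 5 cells both before and after thinning. At least 2 endoderm genes were found in 10 cells and at least 2 streak or mesoderm genes in 10 cells, with 2 cells (3BKO day 3 E4 and 3AKO day 9 B11) in both sets. The streak and mesoderm set depends on Eomes and on depth, as 4 of its 10 cells were left when each cell was thinned to 50000 reads and 4 when Eomes was not counted, and the comparisons made with that set share this limit.

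Which other lineage genes the cells carried was counted on lists of known markers. The 3 cells with Gata4, Gata6, Sox17, Foxa2 and Dab2 together stood apart. WT day 9 C12 had 22 of 28 extraembryonic endoderm genes, 3AKO day 9 F5 had 23 and WT day 3 C8 had 23, whereas cells with none of the 10 genes had 1 to 9 (median 4). Ttr, a thyroid hormone carrier made by visceral endoderm, was detected in these 3 cells and in no other cell, with 207 reads in C12, 390 in F5 and 9 in C8. Cubn, an endocytic receptor of visceral endoderm, had 204, 58 and 168 reads, and was found in 10 cells in all. Lama1, a laminin chain of the endoderm basement membrane, had 691, 593 and 151 reads. Sparc, a matrix glycoprotein abundant in parietal endoderm, had 5554, 10182 and 2273 reads, and Srgn 2546, 416 and 772. Genes linked to visceral and to parietal endoderm were thus present in the same cells. Summed over the list, the level was 54310 CPM in C12, 67700 in F5 and 26393 in C8, against a median of 2310 and a highest value of 24091 in the 319 cells without the 10 genes. Afp, a later visceral endoderm product, was detected in no cell.

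Other cells with endoderm genes had a different company. WT day 9 B5 had Sox17 and Kdr together with Sox7 (483 reads), Isl1 (136), the haematopoietic cofactor Lmo2 (133), the angiopoietin receptor Tek (120), Pecam1 (91) and Cdh5 (64), the last of these the cadherin of endothelial junctions. All of these list genes but Sox7 are on the vascular and cardiac list, of which B5 had 5 of 16 genes. Cells with none of the marker genes looked for had 0 to 4 of the 16 (median 1). The number in B5 was thus just above their range, and Pecam1 alone was detected in 44.5% of them. WT day 9 H5 had Gata4, Gata6 and Sox17 without Foxa2 or Dab2, and carried 2223 reads of Krt19 and 14 of Hand2, a heart and limb mesoderm factor. WT day 9 G5 had Gata4 and Dab2 with Snai1 (223 reads), an inducer of epithelial-to-mesenchymal transition, Mef2c (73), Bmp4 (62) and the matrix genes Postn (61) and Col1a1 (55). Of the 16 vascular and cardiac genes H5 had 4 and G5 had 2, both within the range of cells with none of the marker genes. Of the 7 fibroblast genes G5 had 4, where those cells had 0 to 3. In 3BKO day 3 E4, Gata4 and Gata6 stood beside Mixl1 (167 reads), Eomes (26), Pdgfra (46), Gata3 (30) and Gsc (25), and Sox17, Foxa2 and Dab2 were at 0.

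The 3 day 9 cells with T had further genes of the streak. 3AKO day 9 C1 had Fgf8 (517 reads), the Nodal inhibitors Lefty2 (266) and Cer1 (37), the organizer factor Gsc (28) and the Wnt target Sp5 (46), 6 of the 19 streak genes in all. Cells without the 10 genes had 0 to 6 of these 19 (median 2), so that the number of streak genes in C1 was within their range, and Lefty2 alone was detected in 78.4% of them. WT day 9 A5, with T, Eomes and Mesp1, had Fgf8 (366), Wnt3 (63), Wnt8a (22) and Gsc (24), and 5 of the 19 streak genes in all. A5 also had Hand1 (23), which is on the vascular and cardiac and the trophoblast lists. 3AKO day 9 B11, with the most T, Mixl1 and Foxa2, had Fgf8 (134) and Gsc (121), with 519 reads of Fgf5 and 227 of Bmp4. B11 had 4 of the 19 streak genes in all. The numbers of A5 and B11 were thus also within the range of cells without the 10 genes. Fgf8 and Gsc were thus present in each of the 3 day 9 cells with T, and Mesp1 in A5 only. Cdx2, a posterior streak and trophoblast factor, was detected in no cell.

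**Figure D2:**
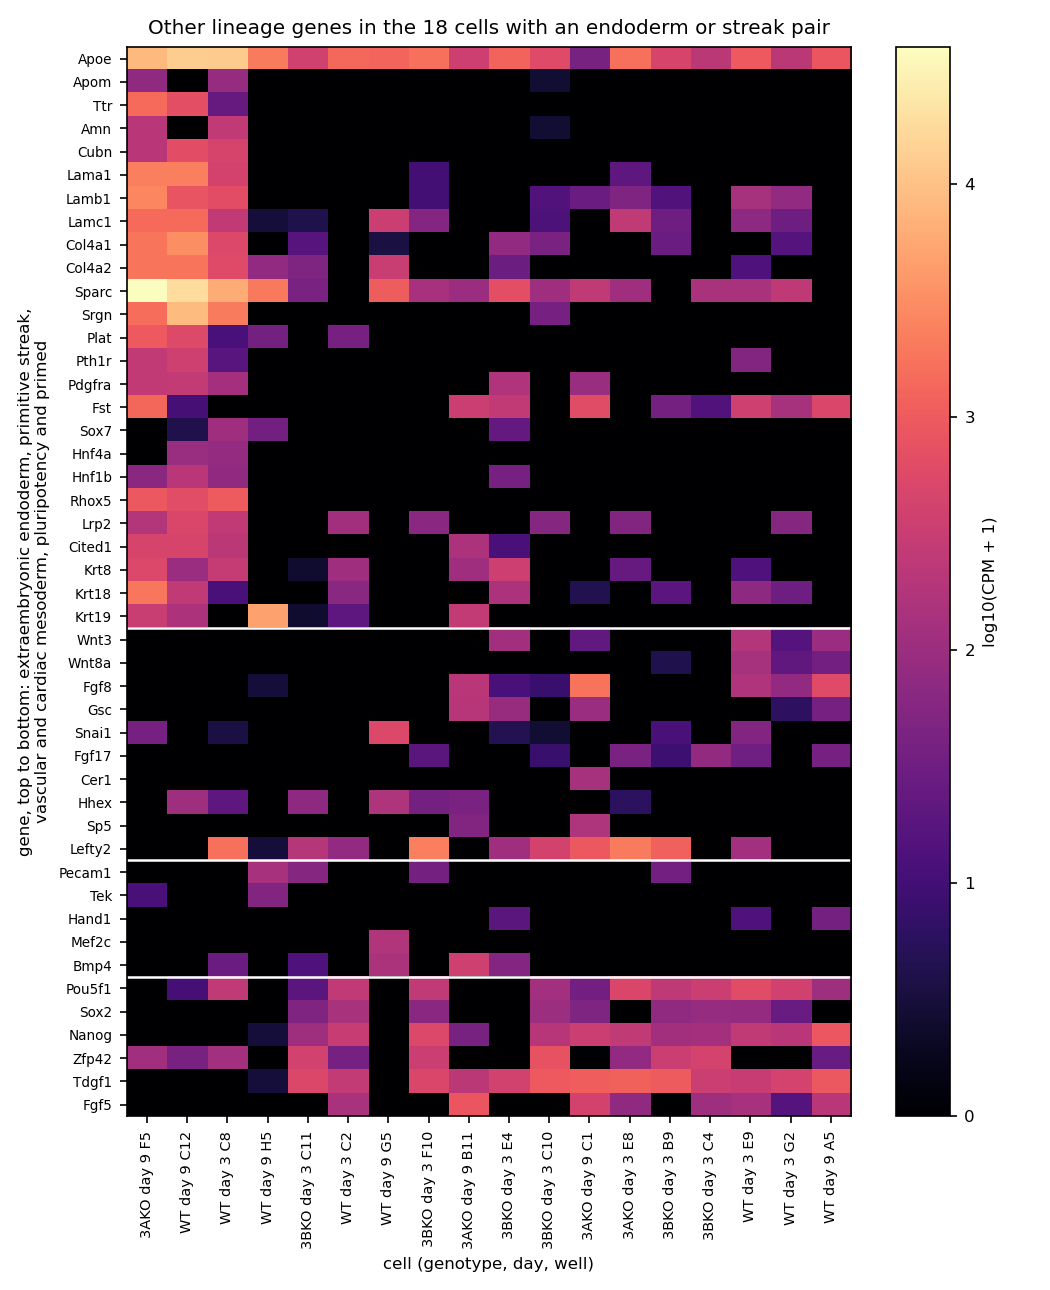
Level, as log10 of CPM + 1 (colour), of 46 lineage and pluripotency genes with at least 20 reads in some plotted cell (rows, grouped by list) in the 18 cells with at least 2 endoderm or at least 2 streak and mesoderm genes (columns). The extraembryonic endoderm rows are filled in WT day 3 C8, WT day 9 C12 and 3AKO day 9 F5, and Pou5f1 is at 0 in 3AKO day 9 F5 and B11, WT day 9 H5 and G5 and 3BKO day 3 E4.

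Over whole lists, the mean CPM of the 10 cells with at least 2 endoderm genes was set beside that of the 319 cells without any of the 10 genes. Of 23 extraembryonic endoderm genes with enough reads, 22 were higher by a log2 ratio of 1 or more, where 15.2% of the 13846 genes measured were, and their median log2 ratio was 5.29 against -0.20 over all genes. Without the 3 cells with all 5 endoderm genes, 11 of 23 were higher (14.5% of all genes) and 5 were lower (27.9% of all genes), with a median of 0.28, so that these 3 cells carried most of the difference. Within days 22 of 23 were higher at day 9 (17.7% of all genes, 5 cells) and 21 of 23 at day 3 (12.4% of all genes, 5 cells). The day 9 reference held 65 WT, 58 3AKO and 38 3BKO cells, whereas no 3BKO cell of day 9 had either pair. Of the vascular and cardiac genes, 3 of 7 were higher and 1 was lower, and of the streak genes 5 of 9 were higher and 4 lower. For other cell types, 1 of 5 neural genes was higher and 3 lower, 1 of 4 trophoblast genes was higher and 3 lower, 1 of 4 fibroblast genes was higher and none lower, and 1 of 5 germ cell genes was higher and 2 lower. In the 10 cells with at least 2 streak or mesoderm genes, 5 of 9 streak genes were higher (8.23% of all genes) and none was lower, with a median of 1.10. Within days, 6 were higher and 2 lower at day 3 (9.87% and 19.2% of all genes, 7 cells), and 4 were higher and 3 lower at day 9 (12.2% and 47.6% of all genes, 3 cells). Of the extraembryonic endoderm genes in these cells, 10 of 23 were higher and 2 lower at day 3 (median 0.77, against -0.14 over all genes). At day 9, 5 were higher and 12 lower (median -1.16, against -0.88 over all genes). The day 9 values of this list were thus close to those of all genes. Over both days 1 of 7 vascular genes was higher and 3 were lower, and of the neural genes 1 of 5 was higher and 3 were lower.

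The genes that went furthest with each set were named by 1 rule, detection in at least 60% of the set and the highest ratio to cells without the 10 genes. With the endoderm pair these were led by the basement membrane collagen Col4a2 (log2 ratio 6.66, in 7 of 10 cells against 6.58% of cells without the 10 genes), the Hippo pathway scaffold Amot (6.01), Sparc (5.47), the endoplasmic reticulum retention receptor Kdelr3 (5.26) and the simple epithelial keratin Krt8 (4.54). Serpinh1, the collagen chaperone, was at 4.31, Lrpap1, a chaperone of the LDL receptor family, at 3.86, and the lysosomal proteases Lgmn and Ctsl at 4.27 and 3.78. Single cells weighed on these ratios, with 71.1% of the summed CPM of Serpinh1, 60.8% of that of Amot and 57.4% of that of Sparc coming from 1 of the 10 cells. Asking for detection in 80% of the cells kept 8 of the 20 endoderm companions and 5 of the 20 streak companions. With the streak pair the leading gene was Rspo3, a secreted amplifier of Wnt signalling (5.33), found in 6 of 10 cells and in 3 of 319 cells without the 10 genes (0.940%). Fgf8 followed (4.95, 7 of 10 cells against 8.15%), then the activin antagonist Fst (3.87), the planar polarity gene Prickle1 (2.93), Vrtn (2.91), Fgf5 (2.56) and the Wnt feedback inhibitor Nkd1 (2.45). No gene was tested here, as the cells were chosen by the 10 genes and come from 1 sample per group.

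Fewer pluripotency genes were detected in the pair cells of day 9 than in those of day 3. Of 18 core and naive pluripotency genes, the 7 cells of day 9 with an endoderm or a streak pair had 1 to 7 detected (median 5). The median was 13 (1 to 18) in 161 day 9 cells without the 10 genes. Of these 161 cells 38 were 3BKO, whereas the 7 pair cells were all WT or 3AKO. The 11 such cells of day 3 had 6 to 16 (median 12), against a median of 14 (7 to 17) in 158 cells, and 3 of the 11 (27.3%) had 8 or fewer, as had 2 of the 158 (1.27%). Cells with only 1 of the 10 genes had medians of 15 at day 3 and 13 at day 9. The plot of genes per cell shows that each pair cell of day 9 lay under the median of the cells without the 10 genes, and that some cells without the 10 genes lay as low. Of the day 9 pair cells, WT A5, G5 and H5 and 3AKO F5 were in plate column 5. The 8 WT cells of that column had a median of 3 genes, against 13 over all WT day 9 cells. The 8 3AKO cells of that column had a median of 11. The part of the plate position in these numbers was not tested.

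**Figure D3:**
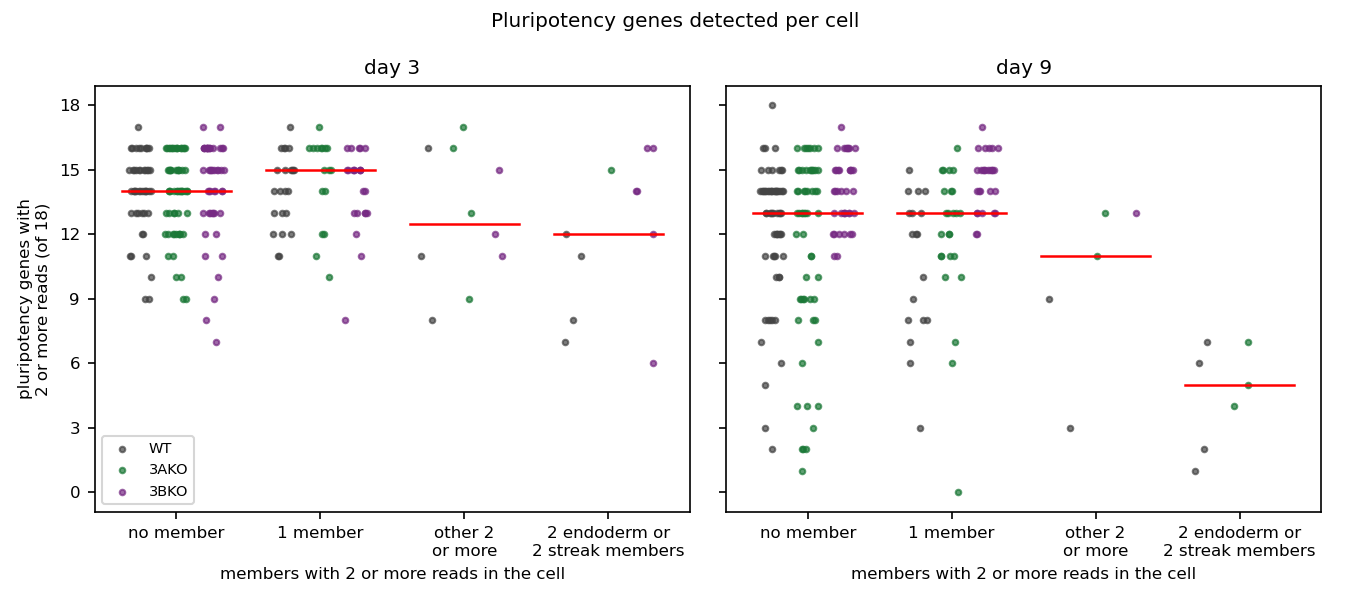
Number of 18 pluripotency genes with 2 or more reads in each kept cell (points), at day 3 (left) and day 9 (right), by how many of the 10 genes the cell had; colours are genotypes and red lines are medians over all cells of a class. At day 9 the 7 cells with an endoderm or streak pair have 1 to 7 genes, and cells with no member reach from 1 to 18.

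By level, 11 of the 18 pluripotency genes were lower by a log2 ratio of 1 or more in the cells with the endoderm pair (23.8% of all genes), none was higher, and the median was -1.18. In the cells with the streak pair 11 of 18 were lower (22.3% of all genes), with a median of -1.23. Within days, the endoderm pair had 17 of 18 lower at day 9 (40.2% of all genes, 5 cells) and 5 of 18 at day 3 (23.5%, 5 cells). The streak pair had 14 of 18 lower at day 9 (47.6% of all genes, 3 cells) and 5 of 18 at day 3 (19.2%, 7 cells). The day 3 shares were thus near those over all genes, and the day 9 shares were above them. The day 9 shares set WT and 3AKO cells beside a reference that also held 38 3BKO cells. Over both days, without the wells of plate column 5, 7 of the 18 were lower in the endoderm pair cells. The parts of genotype and of plate column 5 in these shares were not tested. At day 3, 2 of the 18 were higher in the endoderm pair cells.

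Pou5f1, the core POU factor of pluripotency, was under the median of cells without the 10 genes of the same group and batch in 13 of the 18 pair cells. It was at 0 CPM in F5, B11, H5, G5 and E4, at 9.92 CPM in C12, 35.2 in C1, 105 in A5 and 258 in C8. Sox2, Nanog, Tdgf1, Fgf4, Esrrb and Dppa3 were detected in none of the 4 cells with 3 or more endoderm genes. Klf4 was detected in each of them, against 20.1% of cells without the 10 genes. Of the rest of the list, Sall4, Zfp42, Klf5 and Dppa5a were each detected in 3 of the 4 cells. Pou5f1, Klf2 and Utf1 were each detected in 2, and Lin28a, Tfcp2l1, Tbx3 and Dppa4 in 1. In the cells with the streak pair, Tdgf1, the Nodal coreceptor, was detected in 10 of 10 (228 to 1163 CPM, median 684). Nodal and Sall4 were detected in 10 of 10 of these cells and Nanog in 9 of 10. These genes were common elsewhere too: of the 319 cells without the 10 genes, 95.3% had Tdgf1, 82.8% Nodal, 98.7% Sall4 and 92.5% Nanog. Lefty2 was detected in 6 of the 10 streak pair cells against 78.4%. Fgf5 was detected in 7 of 10, and in 64 of 319 cells without the 10 genes. Of the 8 primed genes in the streak pair cells, 4 were higher and none was lower over both days (8.23% and 22.3% of all genes). Within days, 3 were higher and 1 lower at day 3 (9.87% and 19.2% of all genes). At day 9, 3 were higher and 3 lower (12.2% and 47.6% of all genes), the lower share thus being under that over all genes. A5 had 902 CPM of Nanog and no Sox2, where WT day 9 cells without the 10 genes of its batch had a median of 404.3 CPM of Nanog, and C1 had 348 CPM and B11 39.3 CPM.

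Cells with few pluripotency genes were then counted on their own. At day 9, 8 or fewer of the 18 genes were detected in 21 of 89 WT cells (23.6%; 15.2 to 33.8) and in 19 of 88 3AKO cells (21.6%; 13.5 to 31.6). None of the 67 3BKO cells was as low (0 to 5.36%), and these cells were all on 1 plate that held no other genotype. Of the 40 low cells, 17 (42.5%) had at least 1 of the 10 genes and 8 (20%) had 2 or more, and of the 204 other day 9 cells 66 (32.4%) and 4 (1.96%) did. By genotype, 11 of the 21 low WT cells (52.4%) and 6 of the 19 low 3AKO cells (31.6%) of day 9 had at least 1. Of the 21 low WT cells, 6 were among the 8 kept cells of plate column 5. At day 3, 7 of 242 cells were low, 5 of them (71.4%) had at least 1 of the 10 genes and 4 had 2 or more, among them each of the 3 low WT cells.

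Across genotypes, the share of day 9 cells with 2 or more of the 10 genes was 6.74% for WT (6 of 89; 2.51 to 14.1), 5.68% for 3AKO (5 of 88; 1.87 to 12.8) and 1.49% for 3BKO (1 of 67; 0.0378 to 8.04). The difference from WT was -1.06 percentage points for 3AKO (-9.34 to 7.19) and -5.25 for 3BKO (-12.7 to 2.54), and both intervals include 0. The only such 3BKO cell, H2, had 12 reads of Eomes and 15 of Dab2 with 13 pluripotency genes, and no 3BKO day 9 cell had an endoderm or streak pair. Of the 6 WT cells, 4 were among the 8 kept cells of plate column 5, and of the 5 3AKO cells, 2 were in that column. Without the wells of column 5 WT had 2.47%, 3AKO had 3.75% and 3BKO had 1.61%, so that the order of WT and 3AKO turned. The part of the plate position in these shares was not tested, and that of the plate cannot be told apart from genotype. By batch, the shares were 6.67% and 6.90% in WT, 6.56% and 3.70% in 3AKO, and 2.17% and 0% in 3BKO.

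Of the 9 genes detected in day 9 WT cells, T, Mesp1, Gata6 and Foxa2 were detected in no 3BKO cell, 4 of 9, where 31.9% of 9441 genes of like rarity in WT were absent too. Kdr alone was detected in no 3AKO cell, where 30% of these genes were absent. At day 9 the summed level of Dab2 in WT cells was 53.8 CPM (51.4 to 56.3), that in 3AKO cells 38.3 CPM (35.8 to 40.8) and that in 3BKO cells 0.957 CPM (0.641 to 1.38). Single cells made these sums, with 89.7% of the WT reads in C12 and 77.7% of the 3AKO reads in F5. Sox17 was at 25.9 CPM in WT (24.3 to 27.7), where C12, H5 and B5 gave nearly all its reads, at 10.1 CPM in 3AKO, all from F5, and at 0.957 CPM in 3BKO, all from D7. In the order WT, 3AKO and 3BKO, T was at 2.61, 13.5 and 0 CPM, Mixl1 at 0, 17.7 and 0 CPM, and Foxa2 at 0.603, 19.6 and 0 CPM. In 3AKO, B11 held 88.2% of the T reads, 90.8% of the Mixl1 reads and 81.8% of the Foxa2 reads, so that these levels describe that cell more than the genotype. The Dab2 cells themselves numbered 8 in WT, 12 in 3AKO and 4 in 3BKO.

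Eomes went the other way at day 9, where each genotype was on its own plate. It was detected in 23 of 67 3BKO cells (34.3%; 23.2 to 46.9), 11 of 89 WT cells (12.4%; 6.33 to 21.04) and 16 of 88 3AKO cells, and 3BKO exceeded WT by 21.97 points (7.82 to 35.9). The excess differed by batch, being 9.42 points in batch 1 (-7.32 to 26.6) and 48.9 in batch 2 (22.2 to 71.1), in which the 3BKO cells were also deeper (median 692321 reads against 374958). With each cell thinned to 50000 reads the excess was 8.17 points (-3.93 to 21), being -1.96 in batch 1 and 29.9 (6.30 to 53.8) in batch 2. Summed Eomes levels were 14.3 CPM in 3BKO and 14.2 in WT in batch 1, and 44.5 and 8.03 in batch 2. Of these 23 3BKO cells only H2 had a second gene of the 10.

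At day 3, 2 or more of the 10 genes were found in 8.86% of WT cells (7 of 79), while the 3AKO label had 6.02% (5 of 83) and the 3BKO label 11.25% (9 of 80). In batch 1 alone the shares were 7.41%, 8.62% and 9.26%, a spread smaller than any of the intervals. Eomes was detected in 30.4% of WT cells, with 12.05% under the 3AKO label and 28.75% under the 3BKO label. The difference of -18.3 points between the 3AKO label and WT (-31.2 to -4.99) was -10.4 (-26.4 to 5.78) in batch 1 alone. Mixl1 was detected in 4 cells labelled 3BKO, 1 labelled 3AKO and none of the 79 WT cells. There a count of 0 would still leave room for a share of about 3.80%, taken as 3 of 79 cells and not from the exact interval. The large endoderm values of day 3 were in WT C8 and in 3BKO E4, which lie in batch 1.

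**Figure D4:**
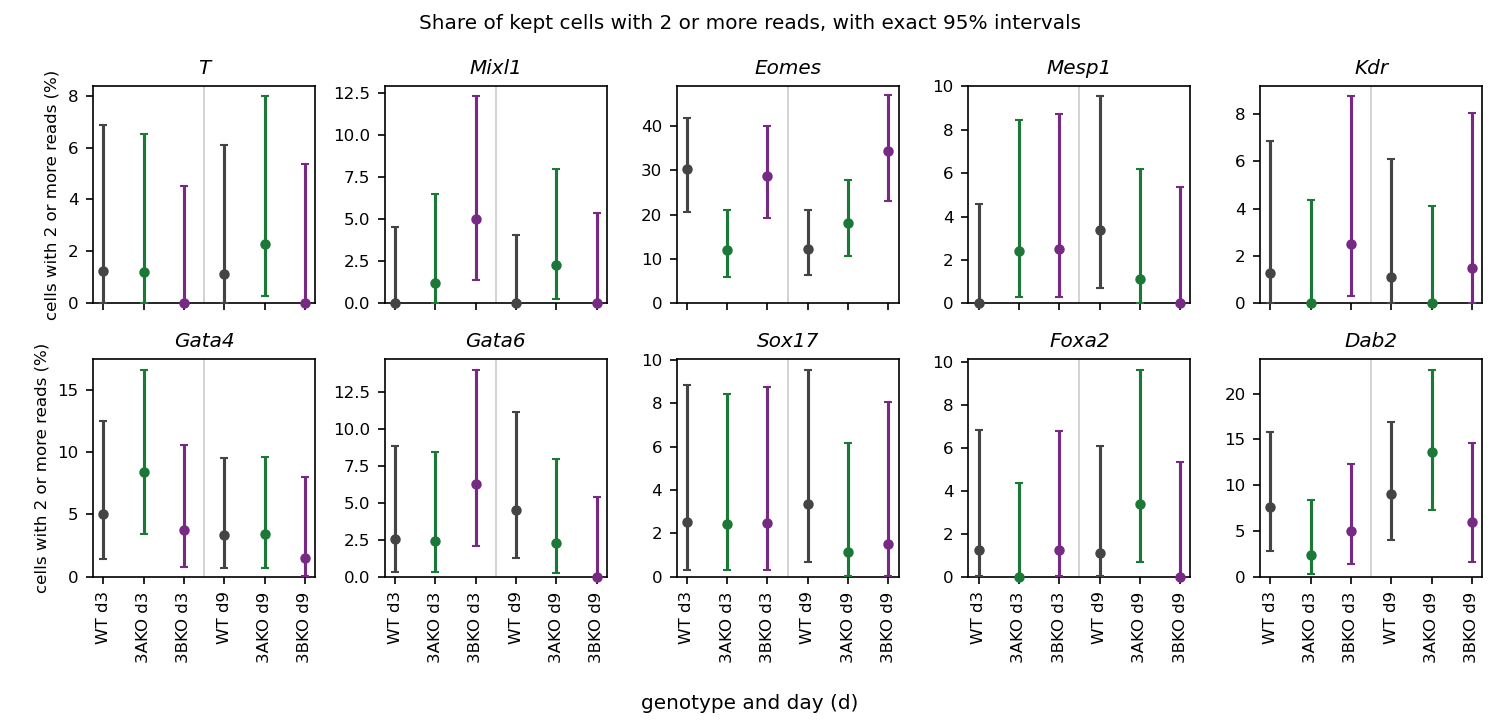
Share of kept cells with 2 or more reads of each of the 10 genes (1 panel a gene), by genotype and day (points), with exact 95% intervals (lines). Eomes stands above the other 9 genes in most groups and reaches 34.3% in 3BKO day 9 cells, while T, Mixl1, Mesp1, Gata6 and Foxa2 are at 0 there.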

How the data were processed

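Per the submitters' processing notes, reads were trimmed (Trim Galore 0.5.0), aligned (STAR 2.7.1a) and counted by gene (featureCounts 1.6.1), and the authors deposited raw counts per gene and cell. The methods name GENCODE M23 exons summed by gene name; the strand setting is not given in the sources used here. Cells were kept at 50000 reads, 2000 genes and 50% mitochondrial reads, and CPM were computed from the counts in Python 3.11.15 (numpy 2.4.6, pandas 2.3.3, scipy 1.17.1). 26 other columns matched no sample and were not used. The members and marker lists were chosen with earlier results of these data known. Companion genes were the 20 with the highest ratio of mean CPM + 1 to cells without any of the 10 genes, among genes detected in 60% of the cells, without unnamed gene models. List genes needed a pooled level of 1 CPM. Each well held 1 sorted cell and no doublet caller was run. TMM (edgeR 4.0.16) and size factors (DESeq2 1.42.0, R 4.3.3) on group sums, other read thresholds, stricter cell filters, thinning to 50000 reads, single batches and 3 members per cell were alternatives. The scripts were checked on simulated data. Positions, exon lengths and exon overlaps are from GENCODE vM21 (GRCm38), an earlier release than that of the counts, and start regions from RefSeq. No sequence or position is printed for Gata6.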

Additional observations from a re-analysis of the deposited data

Results flagged for a closer look

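The change of the Eomes level from WT at day 9 differed between the mutants. The log2 ratio of summed CPM was 1.64 higher for 3BKO than for 3AKO, and each batch had its 3AKO ratio under 0 (-0.21 in batch 1 and -0.63 in batch 2) and its 3BKO ratio above 0 (0.01 and 2.33). The difference itself was not tested, each group being 1 sample, and nearly all of it came from batch 2.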

How the results depend on the processing

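Of 132 values of the comparisons under alternative settings, 106 stayed close to the reported value and 26 moved further. The difference of 3AKO from WT at day 9 turned from -1.06 to 1.28 percentage points without plate column 5, while that of 3BKO stayed under 0 at -0.86. No paired analysis was possible because the labels give no replicate numbers shared between groups and no result comes from a test. Asking for 3 genes per cell gave shares at day 3 of 1.27% (WT), 0% (3AKO) and 3.75% (3BKO), and 0% for 3BKO at day 9, with 4 endoderm and 3 streak cells, and Pou5f1 was then low in 6 of 7 cells. Leaving out Eomes, chosen after seeing the data, gave 2.53%, 0% and 5% at day 3, 0% in 3BKO at day 9 and 4 streak cells. Thinning gave 3.75% in 3BKO at day 3, 0% in 3BKO at day 9 and 4 streak cells. Batch 2 alone had 0% in 3AKO at day 3 and in 3BKO at day 9. Batch 1 held 6 endoderm and 6 streak cells and batch 2 held 4 and 4. Without plate column 5, chosen after seeing the data, WT at day 9 had 2.47%. In the endoderm cells 7 of 18 pluripotency genes were then lower, against 11 of 18 with that column. Without the 3 cells with all 5 endoderm genes, also chosen after seeing the data, 11 extraembryonic endoderm genes were higher. With a limit of 25% of reads in 1 cell, 7 of 10 genes passed against 60.1% of all genes, and among genes in at least 5 cells the share at 50% was 6.18%. Of 240 further counts of detected cells 217 stayed within their interval, as did 186 of 270 levels. The 20 companion genes changed more, with 16 shared under a pseudocount of 10 CPM in both sets, 8 and 5 under 80% detection, and 1 for cells with 3 or more endoderm genes. Cells without a gene at this depth may still express it.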
